A study of Mus musculus with 2 samples.

Results

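Ventral-type secretory cells were examined in a single-cell RNA library made from the proximal and periurethral region of the mouse prostate. They were taken as the droplet barcodes in which Sbp and Spink1, markers of ventral-lobe secretion, together held more than 5% of all unique molecular identifiers (UMIs, the tags that count captured RNA molecules). Only barcodes in which 500 or more genes were found, and in which mitochondrial transcripts took up at most 10% of UMIs, entered the selection. The rule kept 167 of 3709 proximal barcodes (4.50%, exact 95% Clopper-Pearson interval 3.86 to 5.22%), which are called ventral-type barcodes here. In the library of the ventral lobes the same rule kept 1708 of 1995 barcodes (85.6%, 84 to 87.1%), which are called ventral-lobe barcodes. These and all later intervals cover counting error only. Because Sbp and Spink1 chose the barcodes, their own levels are a description and support nothing else.

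Both libraries came from prostates of male C57BL6 mice, for which no treatment and no altered allele is named. Tissue was dissociated with papain and then TrypLE, 5000 cells were targeted per library, and cDNA was amplified over 12 cycles. Droplet 3′ chemistry from 10x Genomics was used in its version 2 for the ventral lobes and its version 3 for the other region, and these differences cannot be told apart. With 1 library per region and neither the age nor the number of mice given, no difference had a replicate check, and no p-value was computed.

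The mouse prostate consists of paired lobes whose ducts join near the urethra, and luminal cells of each lobe release their own set of proteins into the seminal fluid under control of androgens. Sbp encodes spermine-binding protein, an androgen-dependent secretion of the ventral lobe, and Spink1 encodes a Kazal-type trypsin inhibitor found in secretions of the pancreas and the male accessory glands. Luminal cells close to the urethra express genes such as Psca and Krt4 and make little secretory protein.

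Sbp is annotated at chr17:23941672-23945607 on the plus strand of GRCm38, and its paralog Sbpl lies beside it at chr17:23953084-23955274 on the minus strand. The pair is shown because the transcripts are alike while the counts are far apart. The longest annotated transcripts of Sbp and Sbpl were identical at 765 of 820 aligned bases (93.3%), and 283 of 819 stretches of 60 bases in the Sbpl transcript also occurred in Sbp, so reads from the genes could be shared. RefSeq (GRCm38.p6) gives 3 start sites for Sbp and 1 for Sbpl. The 250 bases before the Sbp start site nearest to the annotated gene start, and before that of Sbpl, at chr17:23941428-23941677 for Sbp and chr17:23955274-23955523 for Sbpl, aligned over 173 bases with 107 identities (61.8%). Capitals mark a TATAAA match; the motif was searched on both strands, where its complement reads TTTATA.
Sbp: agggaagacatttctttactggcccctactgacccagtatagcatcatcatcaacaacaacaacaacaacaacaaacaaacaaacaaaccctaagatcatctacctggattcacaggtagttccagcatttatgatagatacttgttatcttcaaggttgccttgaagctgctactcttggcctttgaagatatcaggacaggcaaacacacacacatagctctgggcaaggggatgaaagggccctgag
Sbpl: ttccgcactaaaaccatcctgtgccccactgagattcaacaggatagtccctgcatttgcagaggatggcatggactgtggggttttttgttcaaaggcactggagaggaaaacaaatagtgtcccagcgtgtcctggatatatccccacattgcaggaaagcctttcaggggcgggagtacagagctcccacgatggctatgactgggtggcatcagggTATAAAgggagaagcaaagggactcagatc
The Sbpl window held TATAAA 30 bases before its start, while the Sbp window shown did not hold this motif. Of 32851 promoter windows of 250 bases in the RefSeq table, 12.4% held it. The androgen receptor half-site TGTTCT was searched too and was in neither window shown. It occurred 64 bases before another Sbp start site, and 16.1% of the windows in the table held it. A match describes the letters of the window and not the use of a site. The ventral-type barcodes held 3629727 UMIs of Sbp and 326 UMIs of Sbpl, counted at transcript ends and not divided by length. Sbpl was found in 62.3% of these barcodes, at 61.2 CPM (counts per 1000000, always of UMIs other than Sbp and Spink1 unless stated). It reached 78.7 CPM in the ventral-lobe barcodes and 0.30 CPM in the other proximal barcodes.

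The ventral-type barcodes were few but rich in RNA. They made up 4.50% of kept proximal barcodes, yet they held 11.6% of the UMIs, 98.0% of the Sbp UMIs and 97.9% of the Spink1 UMIs of that library. Their summed share of Sbp and Spink1 ran from 5.11% to 73.0%, with a median of 52.9% (order-statistic interval 51.1 to 55.2%). Median shares were 33.5% for Sbp and 17.3% for Spink1. In the 3542 other proximal barcodes the summed share had a median of 0.137% and a highest value of 4.02%. Fibroblast and macrophage barcodes of the same library, which should lack both genes, had medians of 0.150% and 0.170%, close to the median of all other barcodes.

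**Figure D1:**
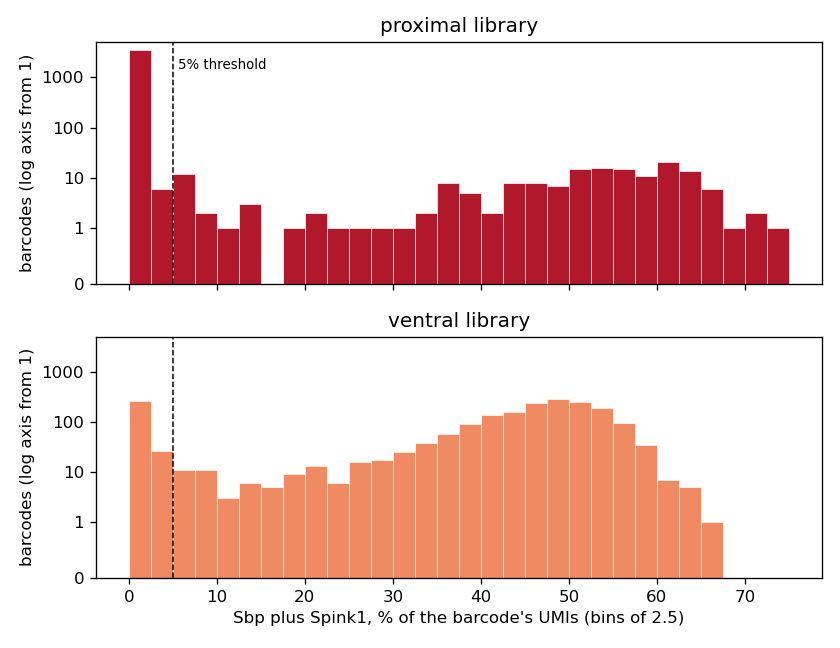
Distribution of the summed Sbp and Spink1 share in kept barcodes of the proximal library (top) and the ventral library (bottom). The x axis gives the share in % of the barcode's UMIs in bins of 2.5, the y axis the number of barcodes (log axis from 1), and the dashed line the 5% threshold; most ventral-type barcodes sit above 40%, apart from the bulk near 0.

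Close to the threshold the barcodes thinned out. The lowest shares inside it were 5.11%, 5.35%, 5.52%, 5.79% and 6.23%, and the highest outside it were 4.02%, 3.86%, 3.76%, 3.74% and 3.69%. Only 19 of the 167 barcodes had a share of up to 20%, while 82 lay between 40% and 60% and 45 above 60%. Classes within these 19 were defined after their values had been seen. In 11 of them the depth was low (median 1385 UMIs), and the ratio of Sbp to Spink1 had a median of 2.08 against 1.90 in the summed library. In the same 11, Tgm4 held a median of 0.460% of UMIs against 0.242% in the summed library. Whether these barcodes hold free RNA in place of a ventral-type cell was not tested. A class that reached beyond these 19 held much Spink1 and little Sbp. In 6 barcodes, 5 of them among the 19 and the sixth at a share of 37.6%, Spink1 UMIs outnumbered Sbp UMIs more than 10-fold. Their Sbp to Spink1 ratios ran from 0.00744 to 0.0595. They were unlike in other genes: Msmb ran from 0.00654% to 8.49% of UMIs, Defb50 from 0.216% to 11.0% and Tgm4 from 0.000926% to 1.01%.

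Sbp and Spink1 stood in different proportions in the libraries. The median ratio of Sbp to Spink1 UMIs was 1.90 over the ventral-type barcodes (10th to 90th percentile 0.803 to 3.11) and 0.928 over the ventral-lobe barcodes (0.448 to 1.62). The ranges overlapped. The same direction was seen in barcodes that held the pair only as background, at 2 in the other proximal barcodes and 1.21 in the other ventral barcodes. Over the 167 ventral-type barcodes the Sbp and Spink1 percentages correlated weakly (Spearman's rho 0.148, and -0.184 over the 148 barcodes above 20%), and both percentages share 1 denominator.

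Depth and purity were read before other genes. The ventral-type barcodes had a median of 64878 UMIs (999 to 218970), 5958 genes and 3.32% mitochondrial UMIs, against 27171 UMIs, 3448 genes and 2.36% in the ventral-lobe barcodes. No barcode was shared between libraries. At least 2 UMIs in each of 2 defining genes of another cell type were found in 16 ventral-type barcodes (9.58%, 5.58 to 15.1%) and in 13 ventral-lobe barcodes (0.761%, 0.406 to 1.30%). Of the 16, 12 carried genes of proximal luminal cells (Psca, Krt4, Ppp1r1b), 4 of basal cells and 1 of fibroblasts. None carried such pairs for macrophages, endothelial cells or T and NK cells. Other secretory types were counted apart: Tgm4 held over 0.5% of UMIs in 6 ventral-type and no ventral-lobe barcodes, and Msmb over 2% in 5 (2.99%) and 32 (1.87%). Summed marker levels were low for several other types. All 5 smooth muscle markers had at least 1 UMI, but their summed level was 0 in the median barcode and 139 CPM in the highest. Of 6 macrophage markers 5 had a UMI (Adgre1 was at 0), with a highest summed level of 189 CPM, and of 5 T and NK markers only Cd3g had one. All 6 proximal luminal markers were present, with a summed level from 0 to 8155 CPM and a median of 270 CPM against 100.1 CPM in the ventral-lobe barcodes. All 6 basal markers were present too, at a median of 102 CPM against 0. Fibroblast markers had a median of 54.0 CPM and a highest value of 4119.5 CPM, against 0 and 5719.7 CPM in the ventral-lobe barcodes. Endothelial markers had a median of 52.4 CPM and a highest value of 1279 CPM, against 0 and 703 CPM. Shares of mixed barcodes depend on depth, and their part in the results below was not tested except by leaving them out.

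Set against the other 3542 proximal barcodes, the ventral-type barcodes carried a broad set of genes besides the pair that chose them. This contrast is the one the rule used, so its genes are described and nothing is read from their number. Past a fold means at least 4-fold after 10 CPM were added to both levels. Of 16237 genes with at least 50 UMIs in either group, 75 were higher (0.462%) and 218 lower (1.34%). Scaled to all UMIs, including Sbp and Spink1, the split was 27 higher and 442 lower. That scaling shifted the median log2 ratio of all genes by -0.30 here, by -0.60 against the Tgm4-rich and by -0.63 against the Msmb-rich barcodes described below.

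Among enzymes and regulators, the histone deacetylase gene Hdac9 (chr12:34047580-34917095) stood at 1322 CPM against 46.2 CPM, 28.6-fold higher. Ccnb1ip1 (chr14:50789248-50807732), an E3 ligase gene known from meiotic recombination, stood at 1422 against 38.3 CPM, 37.1-fold higher. Abo (chr2:26842503-26864979), the blood group glycosyltransferase gene, stood at 1001 against 68.3 CPM. All were found in most ventral-type barcodes: Hdac9 in 87.4%, Abo in 89.2% and Ccnb1ip1 in 74.9%. Asrgl1, an asparaginase-like enzyme gene, stood at 451 against 16.1 CPM, and Gucy2g, a receptor guanylate cyclase gene, was 62.6-fold higher.

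Transport and binding genes formed another group. Crabp1 (chr9:54764748-54773110), a carrier of retinoic acid, stood at 198 CPM against 1.01 CPM, 195-fold higher. Pigr, the receptor that carries polymeric antibodies across epithelia, stood at 863 against 49.9 CPM, 17.3-fold higher. The anion exchanger gene Slc26a4 was 42.1-fold and the potassium channel gene Kcnk3 120-fold higher. Kcnk3 was found in only 41.9% of the ventral-type barcodes, against 91.0% for Pigr. The protease inhibitor genes Spink5 (26.3-fold) and Csta1 (71.6-fold) were higher as well, as were C2cd4a, Fam25c, Dcaf12l1 and Spin2e. On the lower side stood genes of other secretory cells (Svs5, 112 against 3509 CPM; Tgm4, 174 against 2728 CPM), of basal cells (Krt15), of stroma and macrophages (Mgp, Apoe), and of antigen-presenting cells (Cd74), together with Prol1. The list of ventral secretory products was split in this contrast: Sbpl was past the fold on the higher side, Spinkl was past it on the lower side (11.3 against 327 CPM), and Defb50 had a log2 ratio of -0.17. Tgm4 did not pass the fold when every barcode was weighted equally.

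The ventral-lobe barcodes were the nearest profile. Over 4155 genes with at least 50 CPM in any of the secretory groups or in basal barcodes, the Spearman correlation of summed levels with the ventral-type barcodes was 0.914 for the ventral-lobe barcodes, 0.846 for Msmb-rich, 0.748 for Tgm4-rich and 0.365 for basal proximal barcodes. These are correlations across genes, which are not independent, and groups of the proximal library also share its kit and free RNA. Of 11117 genes, 51 were at least 4-fold higher in the ventral-type barcodes (0.459%) and 2 lower (0.018%). Scaled to all UMIs the split was 22 higher and 3 lower. The median log2 ratio over these genes was 0.16.

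Of the 15 genes named above on the higher side within the proximal library, 12 had levels within 2-fold of those in the ventral lobes on the scale with 10 CPM added, 1 was higher (Ccnb1ip1) and 2 were lower (Crabp1, Fam25c). Summed levels in ventral-type and ventral-lobe barcodes were 1001 and 962 CPM for Abo and 863 and 1002 CPM for Pigr. They were 451 and 386 CPM for Asrgl1, 159 and 152 CPM for Slc26a4, and 1322 and 786 CPM for Hdac9. Nupr1, a stress-responsive chromatin protein gene that was not among the 15, stood at 3510 and 3036 CPM. None of these passed the fold between the libraries. Thinned to 1000 UMIs other than Sbp and Spink1, which left out 7 ventral-type and 5 ventral-lobe barcodes, Nupr1 was found in 75.6% (68.2 to 82.1%) and 77.2% (75.2 to 79.2%) of barcodes. Without thinning the shares were 95.8% and 98.7%. Pigr was found in 45.6% and 48.9% after thinning, and Hdac9 in 54.4% and 50.7%. In fibroblast barcodes of the proximal library, thinned alike, Pigr was found in 0.478%, Hdac9 in 1.44% and Nupr1 in 32.3%, with median depths of 11294.5 other UMIs there and 33224 in the ventral-type barcodes.

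Ccnb1ip1 set the ventral-type barcodes apart from the ventral lobes while other cells of the proximal library held little of it. Its summed level was 1422 CPM in the ventral-type and 65.7 CPM in the ventral-lobe barcodes, 21.7-fold higher (20.5 to 22.9). Over ventral-type barcodes it ran from 0 to 13494 CPM with a median of 346 CPM. Over ventral-lobe barcodes the median was 0 and the highest value 8509 CPM, so the groups overlapped. After thinning it was found in 41.9% of ventral-type barcodes (34.1 to 49.9%), 5.23% of ventral-lobe barcodes, 5.98% of Tgm4-rich, 7.69% of Msmb-rich and 8.37% of fibroblast barcodes. In basal barcodes the log2 ratio of the proximal over the ventral library was 0.67, against 4.24 in the barcodes over 5%. Over 16 alternative settings the latter stayed between 3.97 and 4.45. Changes of the UMI minimum and of the Tgm4 and Msmb thresholds, among these settings, could not alter it.

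**Figure D2:**
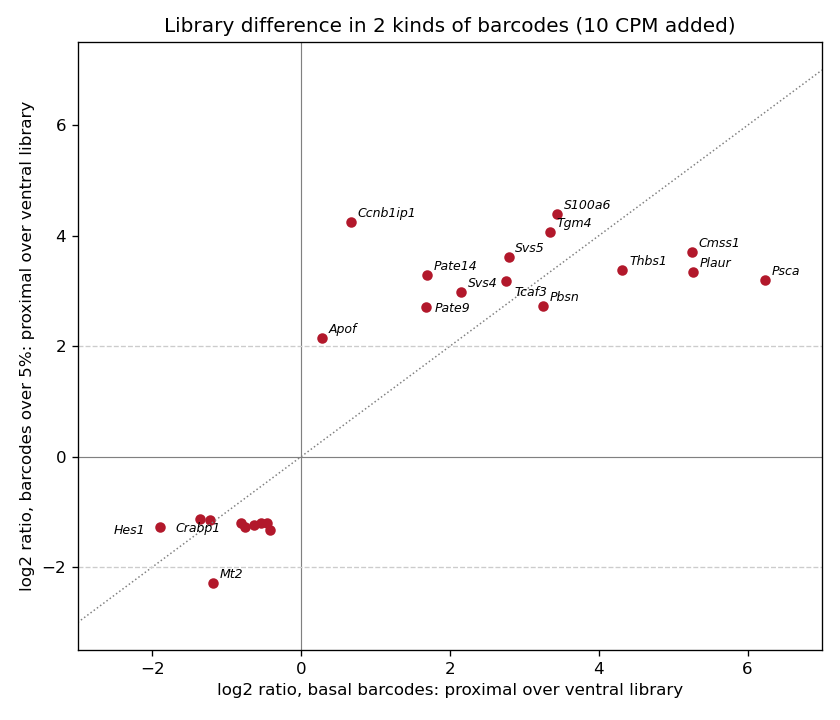
Library difference of the named genes in barcodes over 5% of Sbp and Spink1 (y axis, log2 ratio of ventral-type over ventral-lobe barcodes) against the same ratio in basal barcodes (x axis, proximal over ventral library), both with 10 CPM added. Dashed lines mark 4-fold and the dotted line equal ratios; Ccnb1ip1 and Apof lie above the dotted line near an x of 0, Mt2 is the lowest point, and the unlabelled points at the lower left are named genes between -2 and -1 on the y axis.

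Apof, the apolipoprotein F gene, stood at 615 CPM against 131 CPM (log2 ratio 2.14) with a log2 ratio of 0.28 in basal barcodes. Its median was 346 CPM over ventral-type and 71.9 CPM over ventral-lobe barcodes. In fibroblast barcodes of the proximal library it stood at 5.62 CPM. Msmb-rich proximal barcodes held more Apof than the ventral-type barcodes, with a median of 668 CPM and a summed level of 711 CPM. The remaining named genes on the higher side were also higher in basal barcodes of the proximal than of the ventral library. S100a6, a calcium-binding protein gene, stood at 300 against 4.79 CPM (62.7-fold; basal log2 ratio 3.45), Cmss1 at 1083 against 74.3 CPM (14.6-fold; 5.25), and Psca at 137 against 6.13 CPM (22.4-fold; 6.23). Thbs1, which encodes thrombospondin 1, and Plaur, the urokinase receptor gene, had basal log2 ratios of 4.32 and 5.26. Cmss1 reached 1853 CPM in proximal fibroblast barcodes, more than in the ventral-type barcodes.

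Secretory products of other lobes and of the seminal vesicle made up a further group. Of 8 tested members of that list, 7 were past the fold on the higher side against the ventral-lobe barcodes and none on the lower side, with a median log2 ratio of 2.86 beside 0.16 for all genes. Tgm4, a transglutaminase of semen coagulation, stood at 174 against 0.934 CPM, and Pbsn, the probasin gene, at 861 against 121 CPM. The seminal vesicle gene Svs5 stood at 112 CPM against 0 UMIs in the ventral-lobe barcodes, at least 921-fold higher with 3 counts over that group as the floor. Pate14 was 299- to 9005-fold higher by its counting interval, on 2 ventral-lobe UMIs. Cells of the proximal library that should not secrete these proteins held them too: Tgm4 stood at 95.5 CPM and Svs5 at 56.4 CPM in fibroblast barcodes, and at 97.8 and 88.0 CPM in macrophage barcodes. When 5% of each group's UMIs were subtracted in the proportions of its own library's summed profile, the counts fell to 29 higher and 2 lower. The calls of 8 of the 11 named genes past the fold were then lost, among them S100a6 (log2 ratio -0.37), Tgm4 (-0.13), Psca (-0.10), Pate14 (-0.01), Svs5 (0), Tcaf3 (0.03), Plaur (0.69) and Thbs1 (1.28). Ccnb1ip1 (4.37), Cmss1 (3.67) and Mt2 (-2.25) stayed past it. The 5% was set and not measured, and counts were held at 0 where the subtraction exceeded them. A ratio near or below 0 can therefore reflect an emptied level, and the lost calls depend on the chosen 5%.

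On the lower side, Mt2, a metallothionein gene that binds zinc and copper, stood at 935 against 4627 CPM, 4.95-fold lower. Its median was 724 CPM over ventral-type barcodes and 3499 CPM over ventral-lobe barcodes, with overlapping ranges. The basal log2 ratio was -1.18 against -2.30 here, and over 16 alternatives the value here stayed between -2.40 and -2.18. The same settings as for Ccnb1ip1 could not alter this value. The other gene past the fold was Rpl23a, a ribosomal protein gene outside the naming rule and named after its values were seen, at 715.2 against 2901.5 CPM. Crabp1 (198 against 493 CPM) and Hes1, a transcriptional repressor downstream of Notch (680 against 1659.5 CPM), were 2.5-fold and 2.44-fold lower and did not pass. In basal barcodes the log2 ratios were -0.75 for Crabp1 and -1.89 for Hes1. Zfp512, Hist2h2aa1, Rab26os, Fam25c, Morc3, Slirp and Use1 lay between 2.32-fold and 4.67-fold lower, the latter for Zfp512 on 37 ventral-type UMIs, and none passed with 10 CPM added.

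Within the proximal library, 355 barcodes outside the rule with over 0.5% Tgm4 (Tgm4-rich) and 143 with over 2% Msmb (Msmb-rich) gave profiles of other secretory cells in the same kit and suspension. These groups were also chosen on measured values, so the levels of Tgm4 and Msmb in them are no result. Against the Tgm4-rich barcodes, 143 of 10235 genes were at least 4-fold higher in the ventral-type barcodes (1.4%) and 88 lower (0.86%), and scaled to all UMIs 50 higher and 180 lower. Against the Msmb-rich barcodes, 77 of 9713 genes were higher (0.793%) and 38 lower (0.391%). Scaled to all UMIs the split was 25 higher and 94 lower, and without genes over 1% of UMIs it was 69 higher and 56 lower.

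The sharpest separators were nearly absent from both groups. Nupr1 stood at 3510 CPM in the ventral-type, 21.7 CPM in the Tgm4-rich and 37.8 CPM in the Msmb-rich barcodes, 162-fold and 92.9-fold higher. Hdac9 stood at 1322, 10.1 and 5.27 CPM, 131-fold and 251-fold higher. Median barcode levels of Hdac9 were 1015 CPM in ventral-type barcodes and 0 in both other groups, with highest values of 11685, 198 and 71.4 CPM. All groups held barcodes at 0, but the 25th percentile of the ventral-type barcodes (435 CPM) lay above the highest barcode of either other group. Spink5 stood at 3098, 5.75 and 8.57 CPM, but its median over ventral-type barcodes was 18.9 CPM, since most of its UMIs came from few barcodes. Crabp1 stood at 198, 2.67 and 1.24 CPM and was found in none of 351 Tgm4-rich and 143 Msmb-rich barcodes after thinning (exact upper limits 1.04% and 2.55%), against 18.8% of ventral-type barcodes.

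**Figure D3:**
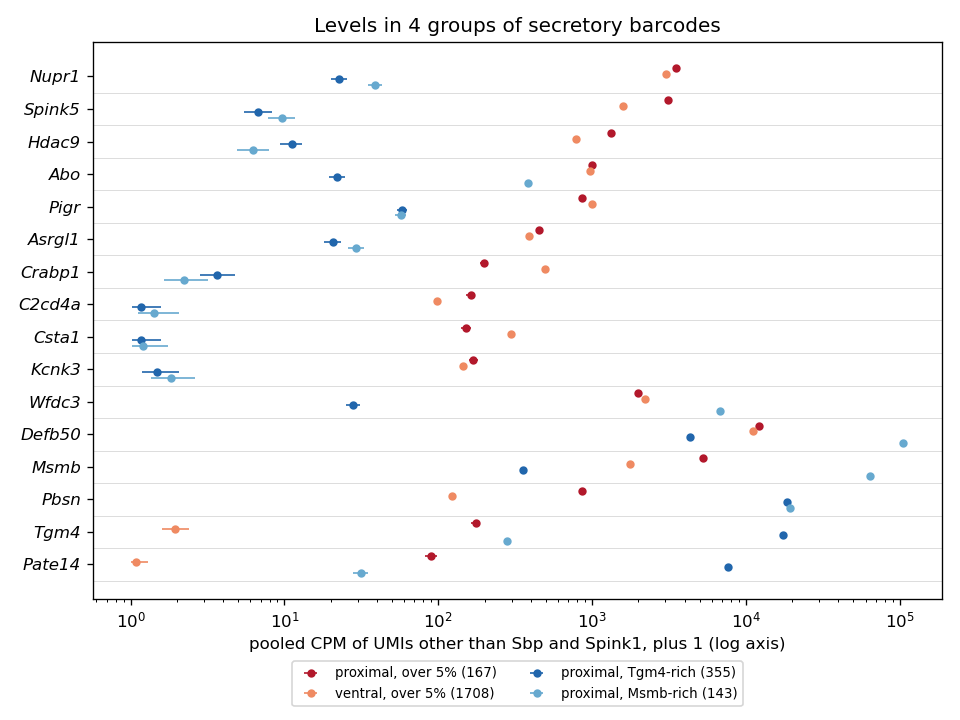
Summed levels of 16 genes in 4 groups of secretory barcodes (x axis, CPM of UMIs other than Sbp and Spink1 plus 1, log axis), with bars for exact Poisson intervals that are mostly narrower than the points. Red and orange points (barcodes over 5% in the proximal and ventral libraries) lie together for most genes from Nupr1 to Kcnk3, far from the blue points of the Tgm4-rich and Msmb-rich groups.

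Further named genes differed from 1 or both of the groups. Wfdc3, a WAP-domain protein gene, was 73.7-fold higher than in Tgm4-rich barcodes (1980 against 26.9 CPM) but lower than in Msmb-rich barcodes (6816.5 CPM, log2 ratio -1.78, short of the fold). Abo was 47.6-fold higher than in the Tgm4-rich barcodes, and the class I histocompatibility gene H2-Q10 and BB123696 were 149-fold and 159-fold higher. Ank, a pyrophosphate transporter gene, was 90.6-fold higher than in the Tgm4-rich barcodes and passed the fold against the Msmb-rich barcodes too (301 against 18.5 CPM). H2-Q10 was not higher than in the Msmb-rich barcodes (277 against 878 CPM). C2cd4a, Kcnk3, Csta1 and Ccnb1ip1 (15.4-fold) were among the 8 highest named genes against the Msmb-rich barcodes, Csta1 on 2 UMIs there. These 4 genes passed the fold against the Tgm4-rich barcodes as well, with log2 ratios of 4.08, 4.09, 3.98 and 4.22.

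On the lower side against the Tgm4-rich barcodes stood Pate14 and Pate9, small secreted proteins of the Ly6 family, at 88.3 against 7645 CPM and 55.6 against 5015 CPM. The renin gene Ren1 (4.13 against 994 CPM), C1rb, Tcaf3, Ms4a5 and Fgl1 followed. Against the Msmb-rich barcodes, Pbsn stood at 861 against 19330 CPM, Defb1 at 412 against 6756 CPM and Defb50 at 12116 against 105492 CPM, the last pair being beta-defensins. Rnase1, a secreted ribonuclease gene, Pcp4, AY761184 and the mucin gene Muc19 were lower too. A single ventral-type barcode held 51.7% of the Pate14 UMIs. Defb50 stood at 234.5 CPM in proximal fibroblast barcodes, far under its level in the ventral-type barcodes.

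Functional lists were compared over the same contrasts; all lists were drawn up with earlier results of these data known. Between 0.018% and 1.4% of all tested genes passed the fold per direction and contrast, so a list with no gene past it does not stand apart from the rest. Of 16 luminal identity and androgen response genes, none passed the fold in either direction against the ventral-lobe barcodes (all genes: 0.459% higher, 0.018% lower), and the largest ratio was 0.81 (Acsl3) on the log2 scale. The luminal factor gene Foxa1 stood at 168 against 128 CPM. Hoxb13, a posterior homeobox gene, stood at 596 CPM in ventral-type barcodes against 886 CPM in ventral-lobe barcodes, 303 CPM in Tgm4-rich and 284 CPM in Msmb-rich barcodes. Hoxb13 and Azgp1 (1174 against 212 CPM) were the list's genes past the fold against the other proximal barcodes. Fkbp5, an androgen-induced chaperone gene, was higher than in the Tgm4-rich barcodes (144 against 25.1 CPM) but not than in the Msmb-rich (203 CPM). Krt8 and Krt18, the keratins of luminal cells, did not pass the fold in any of the 4 contrasts.

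Of 25 measured genes for folding and export in the endoplasmic reticulum, none passed the fold against the ventral-lobe barcodes (median log2 ratio -0.15, all genes 0.16). Against the Tgm4-rich barcodes 22 of 25 lay below 0, with a median of -0.75 beside 0.10 for all genes, and 1 passed: Pdia4, a disulfide isomerase gene, at 98.6 against 451 CPM. Against the Msmb-rich barcodes 19 of 25 lay below 0, with a median of -0.46 beside 0.23, and none passed. Hspa5, the main chaperone gene of the list, stood at 2508 CPM in the ventral-type barcodes, 1911.5 CPM in the ventral-lobe, 4227 CPM in the Tgm4-rich and 3644 CPM in the Msmb-rich barcodes. The medians below that of all genes against both proximal groups held under both other scalings.

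**Figure D4:**
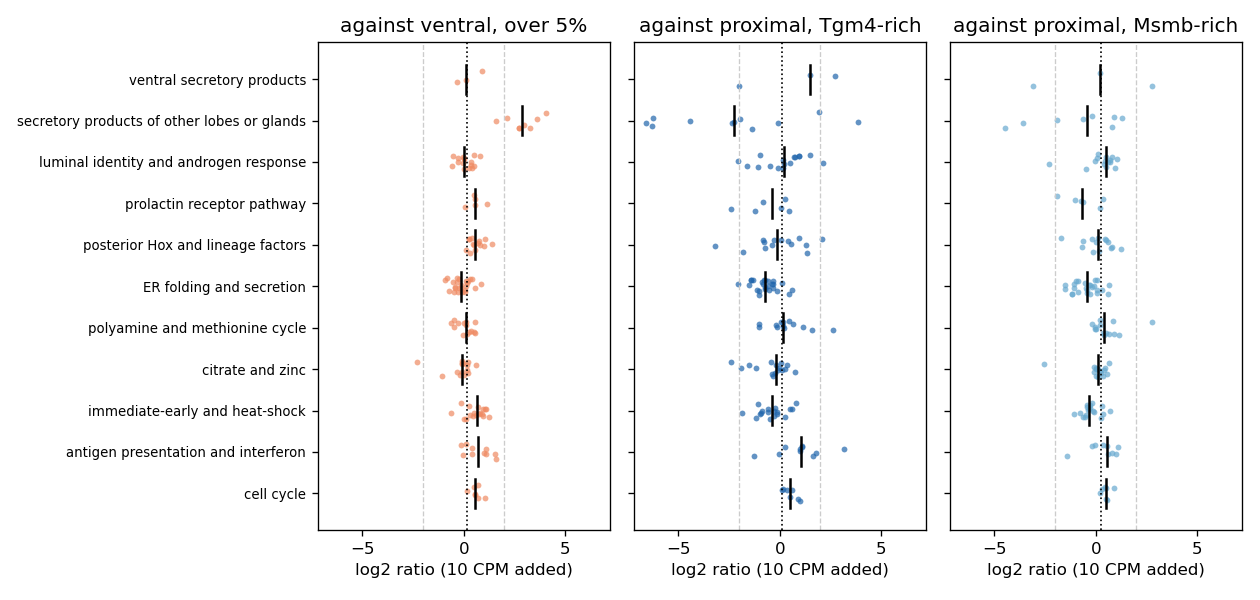
Log2 ratios of ventral-type over ventral-lobe (left), Tgm4-rich (middle) and Msmb-rich (right) barcodes for the tested genes of 11 lists, with 10 CPM added. Each point is a gene, black bars are list medians, the dotted line is the median of all genes and dashed lines mark 4-fold; secretory products of other lobes shift to the right at the left panel and to the left in the middle panel.

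Spermine, the ligand of the Sbp product, is made by the polyamine pathway, which draws on methionine. Of its 14 genes none passed the fold against the ventral-lobe barcodes, and Mat2a, whose enzyme makes S-adenosylmethionine, passed it on the higher side against both proximal secretory groups (1278 CPM against 203 and 180 CPM). Odc1, the ornithine decarboxylase gene, stood at 254 CPM against 110 and 179.5 CPM, short of the fold. Srm, the spermidine synthase gene, stood at 155 against 95.2 and 81.0 CPM. In the citrate and zinc list the zinc transporter gene Slc30a2 was past the fold on the lower side against both groups (2.63 CPM against 56.4 and 63.6 CPM), and it stood at 0.0406 CPM in the ventral-lobe barcodes. The other 15 genes did not pass against either group.

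Of the posterior homeobox and lineage genes, none of 14 tested passed the fold against the ventral-lobe barcodes. Against the Tgm4-rich barcodes Gata2 was lower (11.3 against 183 CPM), and none of 14 passed against the Msmb-rich barcodes. Meis2 and Foxq1 were lower than in the other proximal barcodes. Of the prolactin receptor pathway, Stat5a, a transcription factor gene activated by that receptor, was lower than in the Tgm4-rich barcodes (22.7 against 161 CPM), while Prlr itself stood at 185 against 449 CPM, short of the fold. None of the 5 tested genes of that pathway passed against the ventral-lobe barcodes.

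Of 18 immediate-early and heat-shock genes, which respond to dissociation, none passed the fold in any contrast. Against the ventral-lobe barcodes 16 of 18 lay above 0, with a median log2 ratio of 0.64 beside 0.16 for all genes, for example Hspa1b at 666 against 273.5 CPM and Junb at 1385 against 637 CPM. Of the antigen presentation and interferon genes, H2-Aa, H2-Ab1 and Cd74 were lower than in the other proximal barcodes, and the interferon-induced gene Ifit1 was higher than in the Tgm4-rich barcodes (91.7 against 1.30 CPM). None of 10 tested passed against the ventral-lobe barcodes. None of the tested cell cycle genes passed in any contrast. A single ventral-type barcode of 91259 UMIs held 64 of 73 Mki67 UMIs, 42 of 52 Cdk1 UMIs and 35 of 52 Birc5 UMIs, and it counted among the 16 mixed barcodes, with a Sbp and Spink1 share of 10.7%. With the mixed barcodes left out, the median log2 ratio of the cell cycle list against the ventral-lobe barcodes went from 0.56 to 0.01.

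The ventral-type barcodes varied among themselves. Clustering without Sbp and Spink1 gave 5 sub-clusters, whose leading genes are descriptions since the clustering used them. At a lower resolution of 0.3 there were 3. Sub-cluster 3 (35 barcodes) held 14727 of the 16495 Spink5 UMIs, at 12276 CPM against 429 CPM in the rest, and Spink5 was found in all its barcodes. Sub-cluster 1 (53 barcodes) led in Msmb (11524 CPM), Defb50 (24895 CPM) and Defb1. Sub-cluster 2 (45 barcodes) led in Ccnb1ip1 (3178 CPM) and had the highest median share of Sbp and Spink1 (60.3%). These 3 genes came from few barcodes of sub-cluster 1: its median barcode held 131 CPM of Msmb, 2975 CPM of Defb50 and 30.4 CPM of Defb1, below the medians of sub-cluster 4 (1019, 5274 and 974 CPM).

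**Figure D5:**
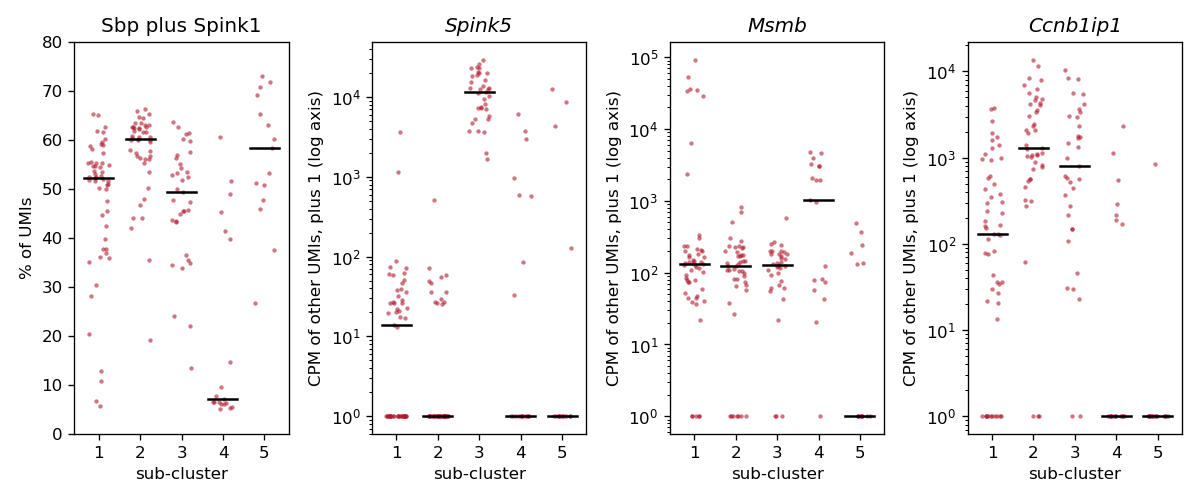
Share of Sbp and Spink1 (left, % of UMIs) and levels of Spink5, Msmb and Ccnb1ip1 (CPM of other UMIs plus 1, log axes) in each ventral-type barcode by sub-cluster, with black bars at medians. Sub-cluster 3 stands apart in Spink5, a few barcodes of sub-cluster 1 in Msmb, and sub-cluster 4 in its low share of the pair (median 7.19%).

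The remaining sub-clusters differed in quality measures as well as genes. Sub-cluster 4 (19 barcodes) had a median share of 7.19% and 2777 UMIs, and led in Psca (1122 CPM), S100a6 (2067 CPM) and Plaur. It joined unlike barcodes: 13 had 999 to 60295 UMIs and shares of 5.11% to 14.7%, among them the 11 shallow ones, and 6 had 115413 to 157192 UMIs and shares of 39.8% to 60.6%. The 6 deep barcodes held 93.6% of the sub-cluster's Psca UMIs at 1273 CPM against 411 CPM in the 13. S100a6 and Plaur were lower in the 6 than in the 13, at 2014 against 2316 CPM and 595 against 1164 CPM. Of the 16 mixed barcodes 7 were in this sub-cluster, 7 in sub-cluster 1 and 2 in sub-cluster 2. Sub-cluster 5 (15 barcodes) had 12237 UMIs and 0.528% mitochondrial UMIs at the median, against 2.70% to 4.28% in the others. It held no UMI of Ank3, Erbb4 or Nrg1, which the other 152 barcodes held at 1508, 1477 and 1314 UMIs. It led in AY036118 (1097 against 166 CPM in the other ventral-type barcodes) and Cmss1 (4730 against 1032 CPM). Gm42418, outside the naming rule, stood at 18976 CPM there, against 5476 to 10617 CPM in the other sub-clusters. The nuclear RNAs Malat1 and Neat1 were low in the same 15 barcodes, at 1357 CPM against 18462 to 22830 CPM and 68.6 CPM against 278 to 681 CPM in the other sub-clusters. The part of RNA quality in these differences was not tested. Without sub-cluster 4, an alternative added after the data were seen, 38 genes were higher and 2 lower than in the ventral-lobe barcodes, and Psca was no longer past the fold.

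Levels of 3 leading genes were then set beside the same genes in the ventral lobes, at a limit of 1000 CPM chosen after the data were seen. Spink5 passed it in 43 of 167 ventral-type barcodes (25.7%) and 307 of 1708 ventral-lobe barcodes (18.0%). Msmb passed it in 18 (10.8%) and 56 (3.28%), and Ccnb1ip1 in 57 (34.1%) and 29 (1.70%). Of the 18, 10 were shallow low-share barcodes that passed on 1 to 21 Msmb UMIs, and without the 11 shallow barcodes the share was 8 of 156 (5.13%). Barcodes past the limit for Spink5 and Msmb rarely coincided, with 2 in the ventral-type barcodes and none in the ventral-lobe barcodes. Kcnk3 stood at 270 CPM in Spink5-high and 121.5 CPM in other ventral-type barcodes, and at 267 and 118 CPM in the ventral lobes. Defb50 stood at 70632 CPM in Msmb-high and 2409 CPM in other ventral-type barcodes, and at 126150 and 4975 CPM in the ventral lobes. Defb1 followed the same split, at 2690 and 34.4 CPM and at 3082 and 26.5 CPM. Of the 8672 Msmb UMIs in Spink5-high ventral-type barcodes, 8494 lay in the 2 that passed both limits, and the other 41 held Msmb at 127 CPM, beside 120 CPM in the Spink5-high barcodes of the ventral lobes. Ccdc77, Pacsin1 and Shoc1 were not compared between libraries, because 262 of 350, 246 of 273 and 214 of 352 of their ventral-type UMIs lay in a single barcode each.

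Genes were ranked by how their level over the 167 ventral-type barcodes followed the share of Sbp and Spink1, among 4200 genes found in at least 50% of them. Highest were Serf2 (Spearman's rho 0.656), Copz2, a coat protein gene of vesicle transport (0.569), Ssr4, of the translocon (0.545), Fam25c (0.541) and Spcs1, of the signal peptidase (0.516), followed by Tspan1, Arpp19 and Pomp. Lowest were Ezr, which links membrane and actin (-0.464), the ferritin gene Ftl1 (-0.421) and the chaperone gene Hsp90b1 (-0.414), followed by Actb, Gsn, Atf4, Chka and Tmem176b. Over the 148 barcodes above 20% the values for Serf2, Ssr4 and Ezr were 0.575, 0.533 and -0.270. The points share library and depth, and the share itself had a rho of 0.268 with UMIs per barcode.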

How the data were processed

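The matrices deposited by the authors contain unnormalized UMI counts; Cell Ranger 7.0.0 and the mm10 build are named per the submitters' processing notes, and the annotation is not given in the sources used here. No column was left unmapped. Counts were summed per group of barcodes and scaled to UMIs other than Sbp and Spink1; exact Poisson and Clopper-Pearson intervals are at 95%. Genes needed 50 UMIs in either group, ratios had 10 CPM added, and 4-fold was the limit. No doublet caller was run: mixed barcodes, and the 5% with the most UMIs, were left out as alternatives. Sub-clusters used scanpy 1.11.5 (2000 variable genes, 20 components, 15 neighbours, Leiden resolution 0.5, igraph 0.11.9), with Python 3.11.15, scipy 1.17.1, numpy 2.4.6 and pandas 2.3.3. Named genes were the 15 highest and 8 lowest against other proximal barcodes, the 10 and 10 against ventral-lobe barcodes, the 8 and 8 against each other group (a UMI in at least 10% of barcodes on the higher side; ribosomal, mitochondrial, immune receptor, haemoglobin and unnamed genes left out), and the list genes past the fold or most abundant. The barcodes and lists were chosen with earlier results of these data known. Scripts were tested on simulated data. Gene positions are from GENCODE vM21. Some genes of the lists are not reported here.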

Additional observations from a re-analysis of the deposited data

How the results depend on the processing

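Members of the group numbered 126 to 199 over the cell filters and thresholds tried. With at least 1000 genes and at most 5% mitochondrial UMIs the median share of Sbp and Spink1 was 55.4%. With CPM of all UMIs the number of genes past the fold was 469 against the other proximal and 25 against the ventral-lobe barcodes, while it was 230 against the Tgm4-rich and 119 against the Msmb-rich barcodes (231 and 115 as reported). With 1 CPM added in place of 10 it was 1174, 261, 702 and 385 against the other proximal, ventral-lobe, Tgm4-rich and Msmb-rich barcodes, since low genes then pass. With 5% free RNA subtracted it was 31 against the ventral-lobe, 286 against the Tgm4-rich and 150 against the Msmb-rich barcodes. Against the ventral-lobe barcodes S100a6 (-0.37), Tgm4 (-0.13), Pate14 (-0.012) and Psca (-0.10) then lay below 0. Because counts were held at 0 where the subtraction exceeded them, these values do not show a reversal. Leiden clustering at 0.3 gave 3 sub-clusters. Of 1056 pairs of a named gene past the fold and an alternative, 1045 kept sign and call, 8 lost the call with free RNA subtracted and 3 otherwise (Tgm4 against the other proximal barcodes with equal weights, Psca against the ventral-lobe barcodes without mixed barcodes and without sub-cluster 4). The cause of these losses was not tested. Some of the 1056 pairs could not change, since the minimum of UMIs does not enter a ratio. The Tgm4 and Msmb thresholds likewise do not enter the contrasts with the other proximal and the ventral-lobe barcodes. No paired analysis was possible because each region has 1 library and no test was made. Depth limits genes under 50 UMIs, which were not compared.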

Other observations

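Some genes had most of their UMIs in a single ventral-type barcode, a measure added after the data were seen. Among 6260 genes with at least 100 UMIs there, 35 (0.559%, 0.390 to 0.777%) had over 50% in 1 barcode, spread over 31 barcodes. The same held for 10 of 8181 genes in the Tgm4-rich (0.122%), 10 of 7316 in the Msmb-rich (0.137%, 0.0656 to 0.251%) and 11 of 9654 in the ventral-lobe barcodes (0.114%), groups that differ in depth and number of barcodes. Wbp2nl, a gene known from sperm, had 381 of its 399 UMIs in 1 barcode, the DNA polymerase subunit gene Pole2 336 of 370, and Pacsin1 246 of 273. Otoa (164 of 183), the meiotic gene Hormad1 (140 of 154), the chemokine gene Ccl5 (124 of 128) and the steroid enzyme gene Hsd17b3 (96 of 105) were further cases. The barcodes holding Wbp2nl, Otoa, Hormad1 and Ccl5 had Sbp and Spink1 shares of 52.0%, 61.7%, 53.6% and 53.1%, near or above the median of the group. Scgb2b7, which was higher in Spink5-high than in other ventral-type barcodes (285 against 3.28 CPM), had 79.9% of its UMIs in 1 barcode; in the ventral lobes it stood at 62.3 against 8.56 CPM.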
